A study of Mus musculus with 12 samples.

Results

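The comparison described here follows hearts that lack the glucocorticoid receptor in cardiomyocytes as they grow from 1 month to 2 months of age. Its members are 6 of the 12 arrays of the study, chosen by their labels: 3 hearts of cardioGRKO mice aged 1 month and 3 aged 2 months. The other 6 arrays hold hearts of Cre-negative GRflox littermates, 3 at each age, and serve as the reference for normal growth over the same interval. All mice were male and on the C57BL/6 background, and all carried the floxed allele of Nr3c1, the gene of the glucocorticoid receptor (GR). In the cardioGRKO mice this allele was recombined by Cre driven from the αMHC (Myh6) promoter, which is active in cardiomyocytes, so that fibroblasts, endothelial cells and blood cells of the organ kept their receptor. No group carried Cre without the floxed allele, so an effect of Cre itself and one of the receptor loss cannot be told apart. RNA came from the whole organ, with 500 ng of total RNA labelled with the dye Cy3 for each 1-colour Agilent array. In such bulk RNA, fewer cells of a type and less RNA per cell cannot be told apart.

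After birth the mouse heart passes from growth by cell division to growth by enlargement of existing cardiomyocytes. Cell cycle genes are shut down, interstitial fibroblasts slow their output of collagen and other matrix proteins, imprinted growth genes are silenced, and cardiomyocytes come to rely on the mitochondrial oxidation of fatty acids and ketone bodies. Glucocorticoids, acting through GR as a ligand-activated transcription factor, are known to promote several steps of cardiac maturation.

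Signals are given as log2 units relative to the 75th percentile of the same array, so that 0 is the level of that percentile and a step of 1 is a doubling. On the 6 cardioGRKO arrays, 67.5% to 79.6% of probes were well above background, and the 2 highest shares belonged to the 2 arrays of slide 4 (79.4% at 1 month and 79.6% at 2 months). Arrays lay on 4 slides. The other 2 cardioGRKO hearts of 1 month were on slide 2 and the other 2 of 2 months on slide 3. Slide 4 alone therefore held both ages of cardioGRKO hearts, as 1 pair. The 3 GRflox hearts of 1 month were on slide 1, and those of 2 months on slides 2 and 3. No slide held both ages of GRflox hearts, so their age change and a slide effect cannot be told apart. Correlations between arrays within a group ranged from 0.950 to 0.986. Deviations from the group mean correlated at 0.80 between the 2 cardioGRKO arrays of slide 4, the highest of the 9 pairs across ages; the other 8 lay between -0.69 and 0.50. Each array is 1 heart according to the study's description, and 3 hearts per age limit the precision.

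The tissue label was checked against cardiomyocyte genes. Tnnt2, cardiac troponin T, lay at 8.42, 8.67 and 8.46 in the 3 hearts of 1 month and at 8.81, 9.22 and 8.69 at 2 months, and Myh6, the α-myosin heavy chain, at 8.63, 8.80 and 8.58 and then 8.70, 9.14 and 8.83. These levels are far above the 75th percentile on every array. Nr3c1 lay at 1.21, 1.26 and 1.31 at 1 month and at 0.96, 0.95 and 0.86 at 2 months, against means of 2.26 and 2.07 in the GRflox hearts. All 6 cardioGRKO hearts therefore read lower than the GRflox means, as their label states. Between the ages Nr3c1 differed by -0.34 ± 0.12 (log2 change ± SE, n = 3 and 3, limma adjusted p = 0.242), which did not pass. Where its probes lie relative to the deleted part of the gene is not stated in the sources used here.

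Of 21892 genes measured, 162 changed from 1 to 2 months in the cardioGRKO hearts at a limma adjusted p below 0.05, which is 0.74% of the genes. The 70 that rose make up 0.32% and the 92 that fell 0.42%. Among these, 26 rose and 22 fell by more than 1 log2 unit. At an unadjusted p below 0.05, 1714 genes were higher (7.83%) and 1532 lower (7%), and the median over all genes was 0.09. The 2 ages did not overlap for any of the 162 genes, a separation found for 24.7% of all genes. With slide as a fixed block, no gene passed after adjustment. Each of the 162 kept its direction and a limma unadjusted p below 0.05, a level reached by 8.83% of all genes. The 162 were chosen for a small p on these same arrays, so this gives no separate support. The number called rests on the pooled spread of all 12 arrays: leaving out single arrays left between 0 and 142 calls, with 1, 25 and 0 without cardioGRKO hearts 1, 2 and 3 of 1 month and 1, 1 and 2 without those of 2 months. Leaving out GRflox hearts, which enter only through the spread, gave 71, 134 and 142 calls for those of 1 month and 54, 82 and 47 for those of 2 months. Centring the arrays on their median in place of the 75th percentile also gave 0 calls, with 1081 genes at an unadjusted p below 0.05. The direction of the 162 genes was unchanged under these settings, which for the left-out arrays follows from the lack of overlap between the ages.

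The 5 marker genes of this growth interval all passed. Bdh1 and Grin3b were the only called members of their gene lists, so they do not stand for a group. Bdh1, the mitochondrial enzyme that interconverts the ketone bodies β-hydroxybutyrate and acetoacetate, had the largest rise of any called gene with a proper symbol. Its signal was 1.29, 1.60 and 1.43 in the hearts of 1 month and 3.99, 3.98 and 3.26 at 2 months. Every older heart exceeded every younger one. The rise came to 2.31 ± 0.23 (95% CI 1.78 to 2.83), a 4.95-fold change with a limma adjusted p of 0.0112. A second probe for the gene gave 1.90. In the GRflox hearts Bdh1 rose by 1.17 from a mean of 2.61 to a mean of 3.78, so the 2 genotypes had near equal means at 2 months (3.75 in cardioGRKO) and stood further apart at 1 month (1.44). The difference between the age changes was 1.14 (95% CI 0.40 to 1.88), with an unadjusted p of 0.00681 and a limma adjusted p of 0.999.

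Grin3b encodes a subunit of the NMDA type of glutamate receptor. It lay at -3.23, -3.15 and -3.16 at 1 month and at -1.87, -1.61 and -1.75 at 2 months, with little spread inside either age. The rise was 1.44 ± 0.16, a 2.71-fold change (limma adjusted p = 0.0112), and GRflox hearts gained 1.54. Ankrd1, a stretch-responsive ankyrin repeat protein of the cardiomyocyte, read 6.66, 6.85 and 6.33 and then 7.84, 8.03 and 7.58. It rose by 1.20 ± 0.20, or 2.30-fold (limma adjusted p = 0.0387). Its change in GRflox hearts was 0.77 (limma adjusted p = 0.089), and the difference of 0.43 between the genotypes had an unadjusted p of 0.156.

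Mki67, the proliferation antigen Ki-67, stood at 1.07, 0.80 and 0.67 in the younger hearts and at -0.43, -0.76 and -0.86 in the older ones. It fell by 1.53 on the log2 scale, with an SE of 0.22, which is 2.89-fold lower (limma adjusted p = 0.03), and a second probe gave -1.44. Col3a1, the α chain of type III collagen, read 5.96, 5.72 and 5.89 at 1 month against 4.33, 4.60 and 4.32 at 2 months. It fell by 1.44 (SE 0.16), 2.72-fold, at a limma adjusted p of 0.0115. Both genes also fell in the GRflox hearts, by 1.94 and 1.59. On mm7, the mouse assembly named in the array files, the probes for the 5 genes lie at chr16:31131721-31131780 (Bdh1), chr10:79757113-79757172 (Grin3b), chr19:35813004-35813063 (Ankrd1), chr7:132094802-132094861 (Mki67) and chr1:45585395-45585454 (Col3a1).

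**Figure D1:**
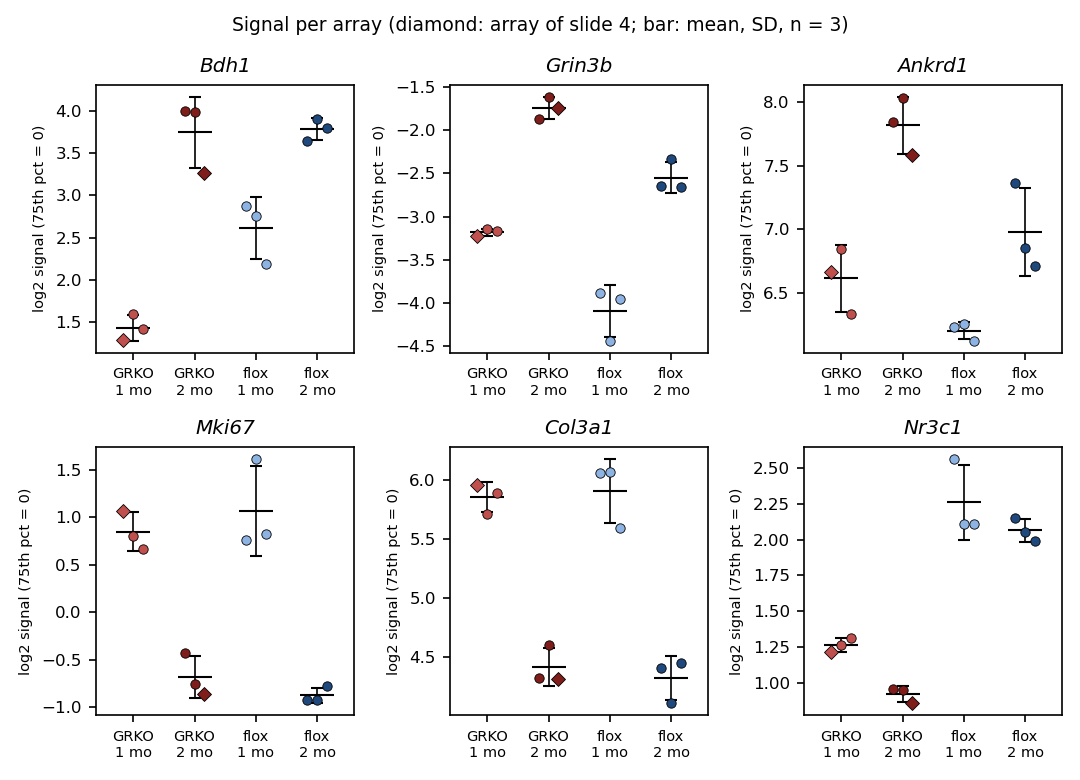
Log2 signal relative to the 75th percentile of the array (vertical axes) for the 5 marker genes and for Nr3c1 in every heart, by genotype and age, with means and SDs of 3 arrays per group; diamonds are the 2 arrays of slide 4. The 2 ages of cardioGRKO hearts do not overlap for any of the 6 genes, a separation found for 24.7% of all genes. It is no test of the 5 genes taken as markers of this interval, and the change of Nr3c1 with age did not pass. Nr3c1 is lower in all 6 cardioGRKO hearts than in the 6 GRflox hearts.

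The extracellular matrix supplied more of the genes that fell than any other group listed. Of 27 collagen genes measured, 12 fell (0.42% of all genes did), none rose, and 26 were below 0 (38.1% of all genes were). Among the 9 fibrillar collagens, whose chains build the tensile fibres of the interstitium, 5 fell and the median change was -1.13, against 0.09 over all genes. The 5 were Col1a1, Col1a2, Col3a1, Col5a1 and Col5a2. Of the 18 other collagens 7 fell, with a median of -0.56: the 3 chains of the beaded filament collagen VI (Col6a1, Col6a2 and Col6a3), the basement membrane chains Col4a1 and Col4a2, and Col15a1 and Col16a1. Within the pair of slide 4, 2 of the same 6 hearts, all 9 fibrillar collagens were lower at 2 months, with a median of -1.32. For the 6 fibrillar collagens whose ages did not overlap, this direction was fixed in advance, so the pair gives no separate support.

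Col1a1, the main chain of type I collagen, read 5.36, 4.92 and 5.31 at 1 month and 4.0, 3.94 and 3.59 at 2 months. It was lower in each older heart and fell by 1.35 (SE 0.23, limma adjusted p = 0.0409). Col5a1, which nucleates type I fibres, had the tightest estimate of the fibrillar group. It went from 2.72, 2.52 and 2.74 to 1.83, 1.75 and 1.65, a fall by 0.92 (SE 0.09, limma adjusted p = 0.0112). A second probe for Col5a1 gave -0.46 (SE 0.33, limma unadjusted p = 0.197). Col26a1, a collagen outside both lists, dropped by 1.64, and the GRflox value was -2.03.

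Partners of the collagens were among the genes that fell. Of 31 matrix glycoproteins and proteoglycans, 4 fell, none rose, and the median was -0.40. Sparc, a collagen-binding matricellular protein, went from 5.78, 5.47 and 5.77 to 4.24, 4.70 and 4.55. Fn1, fibronectin, went from 0.79, 0.62 and 0.39 to -0.51, -0.52 and -0.79. The ages did not overlap for either gene, and the falls were 1.18 (limma adjusted p = 0.0149) and 1.21 (limma adjusted p = 0.0267). The microfibril proteins Mfap2 and Mfap5 fell by 1.26 and 1.15, although a second probe for Mfap2 gave -0.16 (unadjusted p = 0.782). Of the 20 genes of collagen processing only Loxl2, a lysyl oxidase that crosslinks collagen, passed, falling by 1.16, with a list median of -0.20. Postn, periostin, changed by -1.27 at a limma adjusted p of 0.0532, and a second probe for it gave 0.96 with an unadjusted p of 0.322. White adipocyte and mesothelium markers also had medians below 0, -1.23 over 14 genes and -0.69 over 12. At a limma unadjusted p below 0.05, none of the 14 and 6 of the 12 were lower (7% of all genes were). The part of either list in the matrix falls was not tested.

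Fibroblast markers read lower in the same hearts. Of the 15 fibroblast markers, 2 passed, Col1a1 and Col3a1, which belong to the collagen lists too. Of all 15, 12 were below 0 (38.1% of all genes were), and their median was -0.40. Their score, the median over the list of log2 signal minus the gene mean over 12 arrays, ranged from 0.19 to 0.28 at 1 month and from -0.30 to -0.07 at 2 months. Cd248, a surface protein of fibroblasts and pericytes, changed by -0.94 (limma adjusted p = 0.0528) and Thy1 by -0.60 (limma adjusted p = 0.0576). The part of fibroblast number in the matrix values was not tested.

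**Figure D2:**
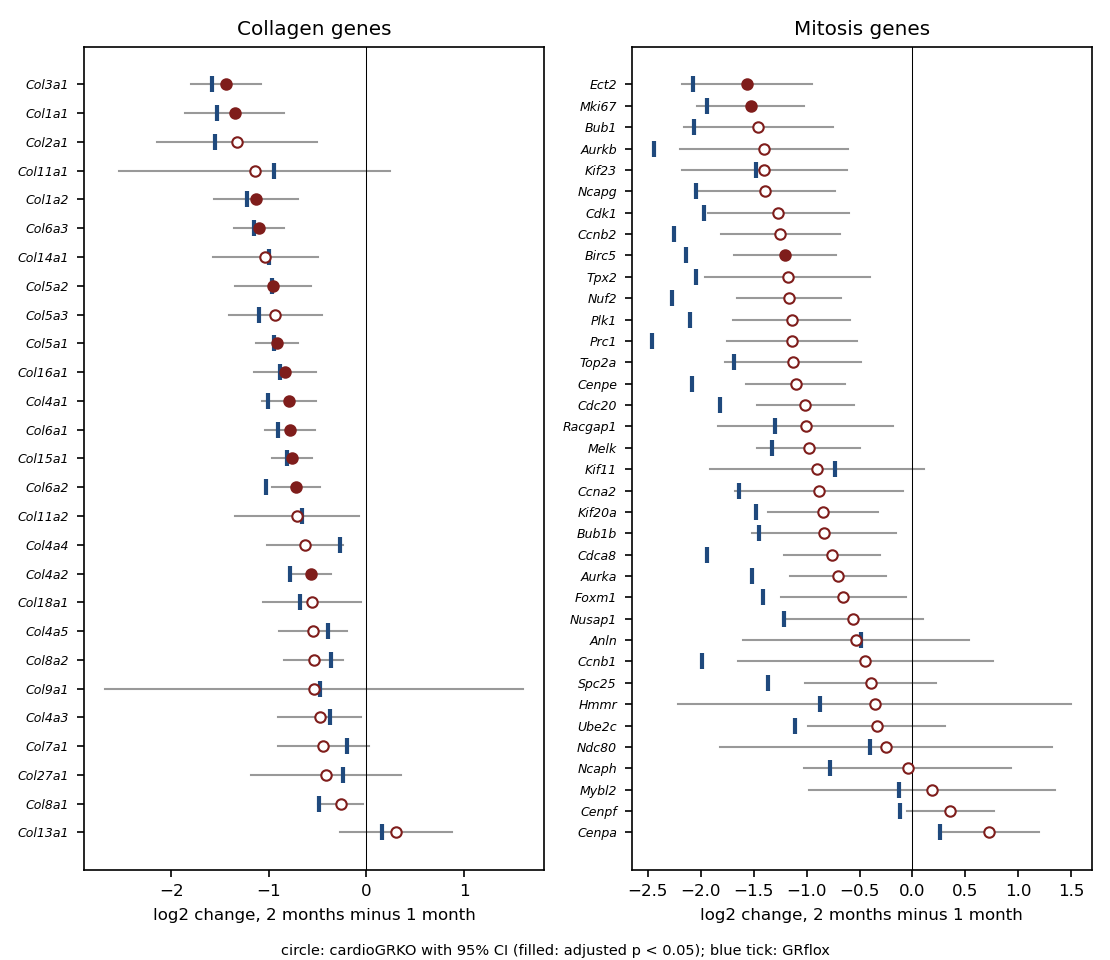
Log2 change from 1 to 2 months (horizontal axis) of the 27 collagen genes and of the 36 mitosis genes measured, as circles with 95% confidence intervals for cardioGRKO hearts, filled where the limma adjusted p is below 0.05, and blue ticks for the change in GRflox hearts. Of the collagen genes, 12 are filled and all of these lie below 0. Of the mitosis genes, 3 are filled and 33 lie below 0. Over all genes, 0.42% were called lower and 38.1% lie below 0.

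Cell cycle genes were a second group among those that fell. Of 62 measured genes of DNA replication and mitosis, 5 fell (0.42% of all genes did), none rose, and 57 were below 0 (38.1% of all genes). At a limma unadjusted p below 0.05, 34 were lower (7% of all genes). The mitosis list had the larger shift, with a median of -0.94 over 36 genes, and 24 of them were lower at an unadjusted p below 0.05 (7% of all genes were). For the 26 replication genes the median was -0.32. Genes of the G1 phase, the cyclins, kinases and inhibitors that decide on entry into the cycle, had a median of -0.11, and none of the 22 measured passed. The promoters of cell cycle genes carry short elements through which they are held silent in resting cells and switched on in dividing ones. The windows of 4 such genes were chosen for the elements that can be seen in them. Of the 4, Mki67, Ect2 and Dtl fell, while Cdk1 did not pass. They run from 250 bases before to 50 after the annotated start in RefSeq (build GRCm38.p6), 5′ to 3′ on the coding strand, which is the minus strand for all 4: chr7:135716330-135716629 for Mki67, chr3:27153829-27154128 for Ect2, chr1:191575495-191575794 for Dtl and chr10:69352863-69353162 for Cdk1. Capitals mark a CHR element (TTTGAA) or an E2F element (TTTGGCGC or TTTCGCGC), each searched on both strands.
Mki67: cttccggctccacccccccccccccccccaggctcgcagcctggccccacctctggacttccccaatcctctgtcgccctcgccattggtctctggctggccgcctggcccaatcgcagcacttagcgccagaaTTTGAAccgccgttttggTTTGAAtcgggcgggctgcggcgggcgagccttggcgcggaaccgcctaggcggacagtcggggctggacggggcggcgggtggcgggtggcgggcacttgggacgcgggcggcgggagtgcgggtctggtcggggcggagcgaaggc
Ect2: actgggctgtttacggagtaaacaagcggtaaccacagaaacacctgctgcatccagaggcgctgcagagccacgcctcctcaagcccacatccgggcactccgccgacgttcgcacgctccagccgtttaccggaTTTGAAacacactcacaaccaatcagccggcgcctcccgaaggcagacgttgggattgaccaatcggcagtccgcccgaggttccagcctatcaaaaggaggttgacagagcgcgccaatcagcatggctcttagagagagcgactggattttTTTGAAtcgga
Dtl: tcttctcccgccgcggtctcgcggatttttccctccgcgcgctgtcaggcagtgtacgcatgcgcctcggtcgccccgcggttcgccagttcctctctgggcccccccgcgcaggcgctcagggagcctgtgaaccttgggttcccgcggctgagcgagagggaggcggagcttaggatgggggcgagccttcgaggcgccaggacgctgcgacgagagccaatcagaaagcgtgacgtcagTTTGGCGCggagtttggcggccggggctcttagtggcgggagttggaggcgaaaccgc
Cdk1: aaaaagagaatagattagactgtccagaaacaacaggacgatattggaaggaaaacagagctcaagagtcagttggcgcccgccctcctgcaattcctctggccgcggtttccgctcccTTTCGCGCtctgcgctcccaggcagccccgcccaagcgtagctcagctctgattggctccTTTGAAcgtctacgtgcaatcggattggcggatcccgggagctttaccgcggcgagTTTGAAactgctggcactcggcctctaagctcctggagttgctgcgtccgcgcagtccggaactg

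In these windows Mki67 and Ect2 hold 2 CHR matches each, Dtl holds 1 E2F match, and Cdk1 holds 2 CHR matches and 1 E2F match. Over the 13614 measured genes with a window, a CHR match was present in 13.7% and an E2F match in 1.31%. Of the 52 windows of the replication and mitosis lists, 25 (48.1%) held a CHR match and 8 (15.4%) an E2F match. Among all genes that fell, 10 of 61 windows held a CHR match, and among those that rose, 6 of 52. The windows of Birc5, Uhrf1 and Tyms held neither element, which says only that these letters are not in them.

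Ect2, a nucleotide exchange factor for the GTPase that drives cytokinesis, read -2.13, -2.45 and -2.40 at 1 month and -3.72, -3.59 and -4.35 at 2 months. It fell by 1.56 (SE 0.27, limma adjusted p = 0.0456), while a second probe gave 0.50 with an unadjusted p of 0.513. Pbk, a mitotic kinase outside the lists, had the largest fall of all called genes with a proper symbol, by 1.74, from -1.79, -2.51 and -2.29 to -3.75, -3.74 and -4.32. Birc5, survivin of the chromosomal passenger complex, went from 0.97, 0.70 and 0.39 to -0.41, -0.52 and -0.63, a fall by 1.20 (limma adjusted p = 0.0476). In each case the 3 older hearts lay below the 3 younger ones.

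On the side of DNA synthesis, Uhrf1, which carries DNA methylation through replication, fell by 1.22 and Tyms, thymidylate synthase, by 0.75; the fit for Tyms lacked the first GRflox heart of 2 months, and 1 of its 3 probes gave 0.48. Dtl, a substrate receptor of the ubiquitin ligase that clears replication licensing factors, fell by 1.15. Cdk1, the kinase of mitotic entry, did not pass: its change was -1.27 (limma adjusted p = 0.0951), with 0.71 from a second probe. Top2a, topoisomerase II, gave -1.13 (limma adjusted p = 0.115; -0.24 from a second probe) and Nuf2, a kinetochore protein, -1.17 (limma adjusted p = 0.0502). Ccnd1 and Ccnd2, the G1 cyclins of the heart, stood at -0.09 and -0.21, the latter without the second heart of 1 month, where its spot was an outlier. Chosen after their values were seen, Gmnn, geminin, an inhibitor of replication licensing, and Polq, a DNA repair polymerase, rose by 0.58 and 0.97 against the direction of the 2 lists.

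Mest, an imprinted gene expressed from the paternal allele and silenced after growth, had the smallest adjusted p of the comparison. Its signal was 1.68, 1.87 and 1.92 at 1 month and 0.56, 0.68 and 0.48 at 2 months. The ages did not overlap, and Mest fell by 1.25 (SE 0.10, limma adjusted p = 0.0102). Peg3, another paternally expressed gene, fell by 0.94 (limma adjusted p = 0.0478), with -0.36 from a second probe. Over the 30 measured genes of the growth and imprinted network, these 2 fell (0.42% of all genes did) and none rose. Of the 30, 25 were below 0 (38.1% of all genes were), and the median was -0.35. Dlk1 had the largest change of the list, -1.88, from -2.65, -2.38 and -2.37 to -4.55, -4.55 and -3.94, at a limma adjusted p of 0.0549, but its second probe gave 0.02. Igf2 gave -0.74 (limma adjusted p = 0.177), Igf1 -0.46 (limma adjusted p = 0.493; -1.77 and -0.51 from its other probes) and H19 -0.24 (limma adjusted p = 0.631).

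Most genes of energy metabolism read slightly higher at 2 months without passing the test. None of the 37 genes of fatty acid oxidation was called, while 32 lay above 0 (61.9% of all genes did). At a limma unadjusted p below 0.05, 14 were higher (7.83% of all genes were), and the median was 0.29. Cpt1b, the muscle carnitine palmitoyltransferase that admits fatty acids to mitochondria, went from 4.70, 4.91 and 4.77 to 5.12, 5.22 and 5.17, a difference of 0.38 (limma adjusted p = 0.0951). All 3 older hearts were higher. All 50 subunits of oxidative phosphorylation were above 0, with a median of 0.24 and none called; under quantile scaling this median was 0.02, against 0.02 for all genes. Quantile scaling also turned the median of the 28 genes of glycolysis and glucose uptake from 0.16 to -0.02. For fatty acid oxidation it left 0.17.

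Among the 10 genes of ketone body metabolism only Bdh1 passed, with a list median of 0.16 that was -0.02 under quantile scaling. Acat1, the thiolase that cleaves acetoacetyl-CoA, gave 0.63 (limma adjusted p = 0.0911). Oxct1, which activates acetoacetate, gave 0.19 and did not pass. Acsl6, a long-chain acyl-CoA synthetase, rose by 1.33, from -1.69, -1.50 and -2.0 to -0.57, -0.32 and -0.31 (limma adjusted p = 0.0305). Pdk4, which restrains glucose oxidation, varied widely inside the younger group (5.43, 5.92 and 3.89) and overlapped with the older one (6.24, 5.87 and 5.17).

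Muscle structure and excitability supplied several of the largest rises. Myot, myotilin of the Z-disc, read -0.36, -0.28 and -0.15 at 1 month and 1.27, 1.07 and 1.12 at 2 months. It rose by 1.42 ± 0.15 (limma adjusted p = 0.0112), the only called member of 30 sarcomere genes, whose median was 0.29 (0.10 under quantile scaling). GRflox hearts gained 1.93 in Myot, from a mean of 1.12 to 3.05, and thus stood above the cardioGRKO hearts at both ages. Capn3, the muscle calpain, rose by 1.22, with 0.62 from its second probe, and Xirp2, an actin-binding protein of the intercalated disc, rose by 0.75 (limma adjusted p = 0.0411). Myh7, the β-myosin heavy chain of the fetal heart, gave 0.57 (limma adjusted p = 0.284) and Tnni1, the slow troponin I of the fetal heart, -0.07. Skeletal muscle markers read higher at 2 months beside these rises: 19 of 20 measured were above 0 (61.9% of all genes were). Their median was 0.36 (0.22 under quantile scaling, 0.14 with normexp as well). Their scores ran from -0.25 to 0.01 at 1 month and from 0.15 to 0.34 at 2 months. None of the 20 was called, and the median was 0.22 in GRflox hearts and 0.23 within the pair of slide 4. Myog, a defining factor picked outside the naming rule, was well above background in 1 of the 3 younger hearts and in all 3 older ones. Other defining factors are not reported here. The share of all probes well above background also differed, at 79.4%, 67.5% and 67.5% in the younger and 74.0%, 69.9% and 79.6% in the older hearts. The part of skeletal muscle in the rises of Myot, Capn3 and Cacna1s was not tested.

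Kcnj14, an inwardly rectifying potassium channel, had the second largest rise. It went from -3.04, -2.86 and -3.29 to -1.27, -1.0 and -1.35, a rise of 1.86 ± 0.18 (limma adjusted p = 0.0112), against 1.39 in GRflox hearts. It was the 1 called gene of 30 potassium and other ion channels (median 0.12). Kcne1, a β subunit of the slow delayed rectifier, gave -1.38 (limma adjusted p = 0.0532), in a fit without the second GRflox heart of 2 months. Cacna1s, the pore of the L-type calcium channel of skeletal muscle, rose by 1.24 (limma adjusted p = 0.0488), with 0.62 from a second probe. None of 30 calcium handling genes passed. Atp2a2, the calcium pump of the sarcoplasmic reticulum, gave 0.45 and Ryr2, its release channel, -0.15. The other probes gave 0.09 and 0.21 for Atp2a2 and 0.29 and 0.55 for Ryr2. Grin3b was the only called member of 12 ionotropic glutamate receptors; Grin2d gave 1.22 with overlapping hearts (limma adjusted p = 0.27).

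Genes of the fetal and load response, those that stretch and hypertrophy induce, had a median of 0.38 over 27 members in cardioGRKO hearts and of 0.09 in GRflox hearts. Of these, 2 rose (0.32% of all genes did), Ankrd1 and Xirp2, and none fell. Nppb, the natriuretic peptide BNP, read 5.06, 4.99 and 4.33 at 1 month and 5.69, 6.48 and 6.01 at 2 months, so that the ages were separate. Its change of 1.26 did not pass (limma adjusted p = 0.126). In GRflox hearts the change was 0.09, and the difference between genotypes, 1.17 (95% CI 0.11 to 2.24), had an unadjusted p of 0.0341 and a limma adjusted p of 0.999. Acta1, skeletal α-actin, gave 1.42 (limma adjusted p = 0.0985). Of the small heat shock proteins of muscle, Hspb7 gave 0.59 (limma adjusted p = 0.0656) and Cryab 0.61 (limma adjusted p = 0.0787), with 0.61 and 0.16 from their second probes. The 14 heat shock genes measured had a median of 0.43, with none called; within the pair of slide 4 it was 0.22. Scores of the load response list ranged from -0.20 to -0.05 at 1 month and from 0.07 to 0.44 at 2 months.

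Most interferon-stimulated genes, the antiviral set that interferons switch on, read lower at 2 months. Of 25 measured, 2 fell (0.42% of all genes did) and 24 were below 0 (38.1% of all genes). At a limma unadjusted p below 0.05, 18 were lower (7% of all genes), and the median was -0.68. Ddx58, the RNA sensor RIG-I, went from -0.59, -0.41 and -0.70 to -1.47, -1.25 and -1.60 and fell by 0.87 (limma adjusted p = 0.0305), with -0.59, -0.26 and -0.32 from its other probes. Irf9, a transcription factor of the interferon response, fell by 0.58 (limma adjusted p = 0.0456), with -0.25 from a second probe. Oasl2 and Ifi44 gave -0.99 (limma adjusted p = 0.0525) and -1.34 (limma adjusted p = 0.0996). Rnf213 and Phf11d, which were named after their values were seen, fell by 0.71 and 0.83. The list median was -0.56 in the GRflox hearts.

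**Figure D3:**
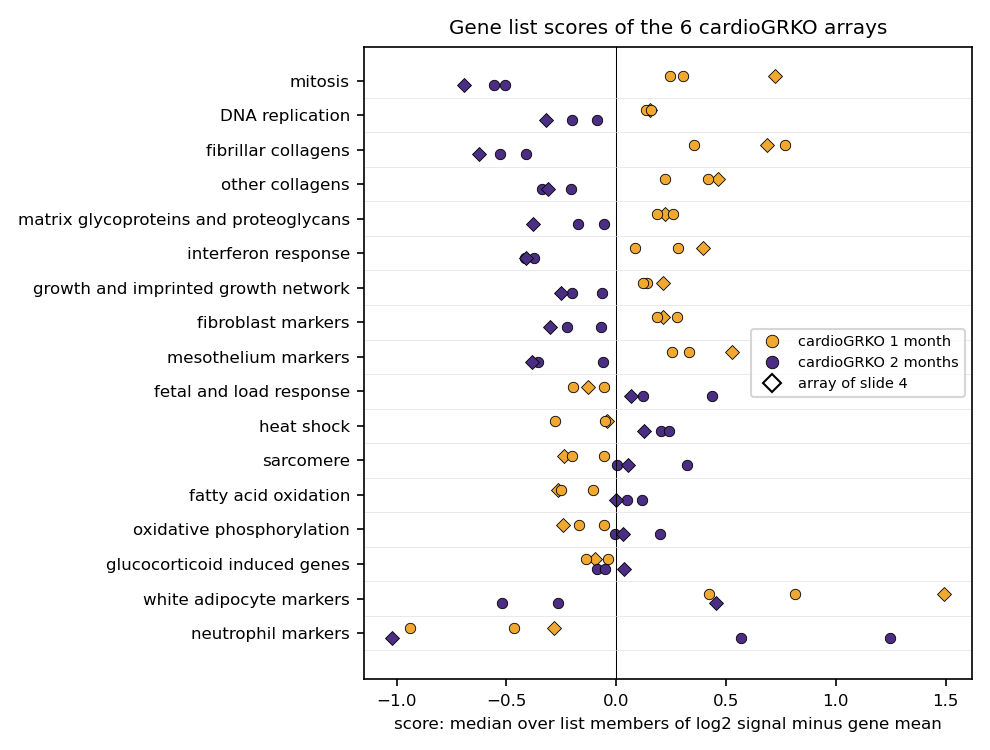
Scores of 17 gene lists (rows) in the 6 cardioGRKO hearts, each the median over the list of log2 signal minus the gene mean over 12 arrays (horizontal axis, log2 units), with diamonds for the 2 arrays of slide 4. The mitosis, collagen, interferon and growth lists lie above 0 at 1 month and below 0 at 2 months in every heart, while the scores of white adipocyte and neutrophil markers spread widely within an age.

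Several large changes lay outside these groups. Cpxm2, a secreted carboxypeptidase-like protein, rose by 1.84, from -0.51, -0.38 and -0.34 to 1.95, 1.02 and 1.33. Cxcl14, a chemokine, rose by 1.41, from 1.21, 1.16 and 0.86 to 2.29, 2.62 and 2.55. The glutathione transferases Gsta1 and Gsta2 rose by 1.17 and 1.43, and since these 2 genes are near-identical copies, their probes may not tell them apart. Vwa7 rose by 1.52 and Lgi1, a secreted neuronal protein, by 1.17. Arc, an activity-regulated gene of neurons, rose by 1.29. Nr4a1, an orphan nuclear receptor of the immediate early class, rose by 1.14, from 2.39, 2.34 and 2.27 to 3.34, 3.50 and 3.57. Nr4a1 was the only called gene of 21 immediate early genes, whose median was -0.04. Prnd, the prion-like protein doppel, fell by 1.26, Tfrc, the transferrin receptor, by 1.00, and Aplnr, the apelin receptor of endothelial cells, by 0.96.

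For the 20 endothelial markers the median was -0.21 and Aplnr was the only call, with -0.32 from its second probe (unadjusted p = 0.62). The median was -0.21 over 15 smooth muscle and pericyte markers and -0.18 over 18 macrophage markers, with none called in the latter 2 lists. Ventricular cardiomyocyte markers had a median of 0.22 over 13 genes, or 0.04 under quantile scaling. Mesothelium markers, which label the outer surface of the heart, were all 12 below 0 (38.1% of all genes were), with a median of -0.69. Among them, Wt1 gave -0.76 (limma adjusted p = 0.177) and Msln -0.70 (limma adjusted p = 0.199). Their scores ran from 0.26 to 0.53 at 1 month and from -0.38 to -0.06 at 2 months.

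Fat borders the heart. Brown adipocyte markers had a median of -0.36 over 11 genes, while white adipocyte markers had the largest median shift of the lists used here. Of 14 white adipocyte markers 11 were below 0 (38.1% of all genes were). At a limma unadjusted p below 0.05, none of the 14 was lower (7% of all genes were) and 1 was higher. Their median was -1.23 in cardioGRKO hearts, -0.84 within the pair of slide 4 and -0.63 in GRflox hearts. Their scores ranged from 0.42 to 1.49 at 1 month and from -0.52 to 0.46 at 2 months, and the scores of 11 neutrophil markers from -0.94 to -0.28 and from -1.02 to 1.25; none of these genes was called. The 15 lung epithelium markers had a median of 0.08 (-0.02 under quantile scaling), with 8 above 0 (61.9% of all genes were). None was called, and changes ran from -4.03 to 1.88. Scgb3a1, a secretory protein of the airways, read 2.13, -2.39 and 3.79 at 1 month and -3.10, -2.68 and -2.30 at 2 months, so the ages overlapped. None of the 3 arrays of 2 months measured Sftpa1, a surfactant protein, well above background. Its ages overlapped, and a comparison of means gave a level 7.73-fold lower at 2 months. That value sets the measured mean of the younger hearts against the lowest signal well above background on each older array. It is no strict bound, since a younger heart read no higher than an older one that was not well above background. The direction for Sftpa1 is thus not settled. Its limma adjusted p was 0.5. The part of bordering tissue in the other results was not tested.

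Genes that glucocorticoids induce gave no call. Of 34 measured none passed, and 13 were below 0 (38.1% of all genes were). Their median was 0.07, close to the 0.09 of all genes. Fkbp5, a chaperone that GR induces, gave 0.60 with overlapping hearts (limma adjusted p = 0.46), and Tsc22d3, known as GILZ, 0.19 (limma adjusted p = 0.619). The other probes gave 0.47 and 0.06 for Fkbp5 and 0.27 and 0.35 for Tsc22d3, the last at a limma unadjusted p of 0.00526. Mt2 and Mfsd2a went the other way, by -0.61 and -1.17, and did not pass. Per1, a clock gene with a GR site, read -0.09, -0.30 and 0.28 and then 0.14, -0.22 and 0.29. Klf15 changed by 0.45 in cardioGRKO hearts (limma adjusted p = 0.199) and rose by 0.85 in GRflox hearts (limma adjusted p = 0.0253), and Ptgds, prostaglandin D synthase, changed by 0.59 (limma adjusted p = 0.171) and rose by 0.99 (limma adjusted p = 0.0262). The differences between genotypes, -0.40 and -0.41, had unadjusted p of 0.093 and 0.14.

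The same growth interval in GRflox hearts gave 442 called genes (2.02%), 165 higher (0.754%) and 277 lower (1.27%). No slide held both ages of GRflox hearts. Their age change, and its comparison with that of cardioGRKO hearts, therefore cannot be told apart from slide. Both genotypes shared 125 calls, all in the same direction, which is 77.2% of the cardioGRKO calls and 28.3% of the GRflox calls. All 162 genes called in cardioGRKO hearts had the same sign in GRflox hearts (77.96% of all genes did). Of the 162, 161 had a limma unadjusted p below 0.05 there, a level reached by 3448 of all 21892 genes. Across all 21892 genes the 2 sets of age changes had a Pearson r of 0.60, given as a description, since genes are not independent and the arrays share slides. The direct test of the difference between the age changes called no gene by limma, with 285 (1.3%) at an unadjusted p below 0.05 and a smallest adjusted p of 0.782. No change can therefore be called particular to hearts without cardiomyocyte GR.

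**Figure D4:**
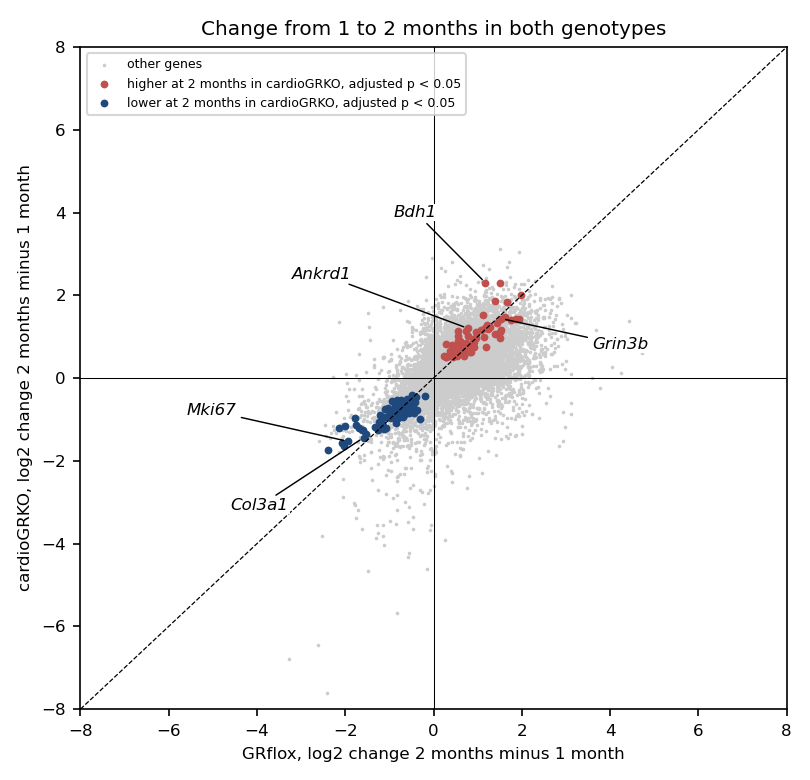
Log2 change from 1 to 2 months in GRflox hearts (horizontal axis) against that in cardioGRKO hearts (vertical axis) for 21892 genes, with the 70 genes that rose in cardioGRKO hearts in red, the 92 that fell in blue and equal change as the dashed line. All 162 coloured genes lie in the 2 quadrants of equal sign, which hold 77.96% of all genes.

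Among the 38 gene lists, mitosis had the widest gap between the medians of the genotypes, -0.94 in cardioGRKO and -1.58 in GRflox hearts, with 3 and 22 genes called lower. Of its members, 10 had an unadjusted p below 0.05 for the difference and none passed after adjustment. Cdca8, borealin of the chromosomal passenger complex, changed by -0.76 in cardioGRKO hearts (limma adjusted p = 0.127) and fell by 1.94 in GRflox hearts, a difference of 1.18 (unadjusted p = 0.00236, limma adjusted p = 0.999). Cenpk, a kinetochore protein, gave -0.44 and a fall by 1.63, a difference of 1.19 (unadjusted p = 0.0025). Scores of the list were 0.24 to 0.72 in the younger and -0.69 to -0.51 in the older cardioGRKO hearts, against 0.52 to 1.27 and -1.0 to -0.49 in the GRflox hearts. The ranges of the 2 genotypes overlapped at each age.

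The other genes with the smallest p for the difference were Prr27, Klk1b16, Supt7l and Cngb3. Prr27 and Klk1b16 were not well above background on any cardioGRKO array, so their values there carry no change. Supt7l, a subunit of the SAGA coactivator complex, gave 0.74 in cardioGRKO hearts, from -4.24, -4.03 and -4.19 to -3.56, -3.48 and -3.19 (limma adjusted p = 0.0554), and -0.13 in GRflox hearts, a difference of 0.88 (unadjusted p = 0.00178). Cngb3, a subunit of a cyclic nucleotide-gated channel, changed by 0.37 in cardioGRKO hearts (limma adjusted p = 0.338) and rose by 1.34 in GRflox hearts. Its second probe gave 1.11 in cardioGRKO hearts (unadjusted p = 0.00288). None of these differences passed after adjustment.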

How the data were processed

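Gene expression was measured in 12 whole mouse hearts on 1-colour Agilent arrays. The deposited values are intensities (gProcessedSignal), which per the file headers were detrended, not locally background-subtracted, and given surrogates where dim. Per the submitters' processing notes they were extracted with Agilent Feature Extraction 9.5. The deposited value table held the same intensities. Probe positions are on mm7, per the file headers. No further normalization by the authors is stated in the sources used here.

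Here, log2 of the deposited intensities was taken, and the 75th percentile of each array subtracted. Control spots and 88 to 402 outlier spots per array were left out, spots of a probe averaged, and probes kept where well above background on at least 3 of 12 arrays. Of 41174 probes, 23068 were named through RefSeq accessions, 6587 by symbol, 3076 by synonym, and 8443 kept the file's name. A gene was represented by its kept probe with the highest mean. The 75th percentile signal before scaling was 879 to 1549.

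A model with 1 mean per group was fitted to all 12 arrays with limma 3.58.1 (R 4.3.3), two-sided, moderated by eBayes, with Benjamini-Hochberg adjustment over 21892 genes. Figures were drawn with matplotlib 3.10.9 in Python 3.11.15. The fit was tested on simulated data for the cardioGRKO comparison over the 21447 genes with no missing value. It recovered 43 of 100 changes of 1 log2 unit and 71 of 100 of 2 units, with 8 false calls. The simulated noise was independent between arrays and held no slide effect. These counts therefore do not give the error of the real comparison, where age and slide are confounded. The members and the 38 gene lists were chosen with earlier results of these data known, so they are described by counts and medians. Named were the 5 markers and Nr3c1, the 15 largest rises and falls with proper symbols, up to 4 members per list by moderated statistic, the 6 smallest p of the difference between genotypes, and fixed genes of cardiac maturation, with exceptions stated where they occur; some genes under this rule are not reported here. Replicate numbers do not pair the hearts: correlations of deviations between same-numbered hearts of the 2 ages were -0.69, 0.28 and -0.58, while the 2 arrays of slide 4, numbered 1 and 3, gave 0.80. Promoter windows were matched by symbol to RefSeq. Exon and UTR positions of the probes were not analysed here. Alternatives covered scaling, background, filter, probe choice, moderation, blocks and left-out arrays.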

Additional observations from a re-analysis of the deposited data

How the results depend on the processing

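Against 162 calls, quantile scaling gave 89 in all (79 of them among the 162), normexp with quantile scaling 211 (118 shared), median centring 0, the filter on all 12 arrays 378 (158 shared), no filter 33 (33 shared), the mean of the probes of a gene 40 (38 shared; 57.5% higher, against 43.2%), trend and robust moderation 418 (150 shared), the 6 cardioGRKO arrays alone 0 (3463 at an unadjusted p below 0.05), slide as a fixed block 0 (1933), slide as a random block 108 (108 shared), scan day as a block 78 (71 shared), and leaving out the second scan day 0 (2574). With the replicate number as a block the count was 0 (2888 at an unadjusted p below 0.05), although the numbers do not pair the hearts. Leaving out 1 array gave 0 to 142 calls: among GRflox hearts, 71, 134 and 142 without those of 1 month and 54, 82 and 47 without those of 2 months; among cardioGRKO hearts, 1, 25 and 0 without those of 1 month and 1, 1 and 2 without those of 2 months. The 442 GRflox calls became 75 with median centring, 697 with the all-array filter, 263 with no filter, 756 with trend and robust moderation, 241 with a random slide block, 192 with the replicate block and 224 without the second scan day, and 146 to 394 without single arrays; the cause was not tested. The difference between genotypes gave 0 calls in every fit run. Signs turned only for genes that had not passed, by these log2 changes. Under quantile scaling Oxct1 was -0.062 and Myh6 -0.095; with normexp, Oxct1 was -0.024, Fabp3 -0.0068, Klk1b16 -0.043, Myh6 -0.071 and Actc1 -0.010. With the mean of probes Slc16a7 was 0.47, Myom1 -0.051, Tnnt2 -0.070, Ncam1 0.012, Tnni1 0.067, Ryr2 0.23, Ppargc1a 0.073 and Ccnd2 0.12. With slide as a fixed block Ccr7 was -0.013, Il7r -0.028, S100a8 -0.55, Tnni1 0.31, Ppargc1a 0.098 and Ccnb1 0.0099. The all-array filter gave Ccnd2 0.26. Without the second scan day Klk1b16 was -0.16 and Per1 -0.027. Leaving out single arrays gave -0.018 to 0.69 for Klk1b16, -0.50 to 0.29 for Tnni1, -0.12 to 0.095 for Ppargc1a, -0.23 to 0.017 for Ccnd1 and -0.024 to 0.27 for Per1. Depth on arrays is signal over background, and dim genes such as Prr27 carry no order below it.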
